A study of Mus musculus with 12 samples.

Results

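The genes examined were 10 genes of the basement membrane, namely the 3 laminin alpha chain genes *Lama2*, *Lama4*, and *Lama5*, the beta chain genes *Lamb1* and *Lamb2*, the gamma chain gene *Lamc1*, the nidogen genes *Nid1* and *Nid2*, the perlecan gene *Hspg2*, and the agrin gene *Agrn*. They were chosen by name out of 55536 genes in the count table, with earlier results of these data known. All 10 passed the filter on low counts that left 14499 genes. The cells were C2C12GFP cells, a clonal mouse myoblast line carrying green fluorescent protein, put into differentiation on uncoated plates (control) or on a coating of Collagen I, of fibronectin, or of Geltrex™. Geltrex™ is a basement membrane extract whose main proteins are laminin, collagen IV, and entactin, which is another name for nidogen. RNA-seq was run on 3 samples of each of the 4 groups, 12 in all. The day on which the RNA was taken is not given in the sources used here, and neither is whether the 3 samples of a group were separate cultures, so the p-values measure the spread between these samples, which may be technical.

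A basement membrane is a thin sheet of matrix that surrounds each muscle fiber. Its first layer is laminin, a cross-shaped trimer of 1 alpha, 1 beta, and 1 gamma chain that polymerizes on the cell surface, where integrins and alpha-dystroglycan hold it. Nidogens bind the laminin gamma chain and tie the laminin layer to the collagen IV network, and the heparan sulfate proteoglycans perlecan and agrin bind laminin, the network, and the receptors. Loss of the laminin alpha chain encoded by *LAMA2* causes a congenital muscular dystrophy, and the beta chain encoded by *Lamb2* and the agrin protein are concentrated at the neuromuscular junction.

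Total counts per sample ranged from 22520404 to 27351766. The mitochondrial share of the counts lay between 4.56% and 11.5%, highest in Collagen I sample 3, and the mean GC content of the counted transcripts was lowest in fibronectin sample 2 (47.8%) and highest in Collagen I sample 3 (49.1%). The 3 Geltrex™ samples were more alike than those of any other group. The chi-square of their counts per gene was 2.18 to 4.54, against 7.71 to 64.6 in the other groups. The Geltrex™ comparisons of the examined genes were therefore also fitted with the 3 summed into 1. That fit takes the spread from the other groups and assumes that the lone sample varies like them. Ratios between genes, and results for single genes outside the set, are given only with the 3 samples kept apart. All 7 myotube markers were detected in each group, and their summed level was 7457 to 8413 CPM in the control, 8159 to 8421 CPM on Collagen I, 2008 to 2448 CPM on fibronectin, and 3071 to 3359 CPM on Geltrex™. The 5 proliferation markers ran the other way, with 145 to 189, 128 to 135, 479 to 631, and 509 to 562 CPM in that order. Against the control, 7 of 7 myotube markers fell and 5 of 5 proliferation markers rose on fibronectin, and the same counts held on Geltrex™. Of the 5 myoblast markers, 2 fell on fibronectin (*Cdh15* and *Des*) and 2 fell on Geltrex™ (*Myod1* and *Des*). On each of these coatings 0 myoblast markers rose. Of all genes tested, 14.7% fell and 17.1% rose on fibronectin, and 16.6% fell and 16.4% rose on Geltrex™. The part of these markers in the differences described here was not tested. In bulk RNA fewer cells of a type and less RNA per cell cannot be told apart. Markers of endothelial, epithelial, and Schwann cells and of macrophages were near 0. The summed levels were at most 3.53 CPM for 6 endothelial genes and 0.255 CPM for 5 epithelial genes. They were at most 3.23 CPM for 5 Schwann cell genes and 1.85 CPM for 5 macrophage genes, and *Epcam* had 0 counts in every sample. The 6 fibroblast genes, which include collagens that myoblasts also make, summed to between 5249.6 and 6646 CPM in all groups, a sum carried mainly by *Col3a1* (3629.8 to 4467 CPM). Of the 5 tested, 3 fell on fibronectin and on Geltrex™ against the control and on Geltrex™ against fibronectin. Genes that fell made up 14.7%, 16.6%, and 10.3% of all genes in that order. *Col3a1* and *Pdgfra* were not called in these comparisons, and *Pdgfra* was called higher on fibronectin and on Geltrex™ against Collagen I. The 3 that fell are named here after their values were seen. *Lum* had mean levels of 90.5 CPM in the control, 53.8 CPM on fibronectin, and 19.2 CPM on Geltrex™, *Dcn* 2009.9, 1665, and 1316 CPM, and *Col1a1* 142, 86.5, and 62.7 CPM, and their part in the differences described here was not tested either.

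The start regions of 4 of the genes are shown because the results turn on them. *Lamb1* and *Lamb2* are the beta chains whose balance moved, *Nid1* rose on 2 coatings, and *Hspg2* has the highest CPM of the set in the control. RefSeq promoter windows (GRCm38.p6, 250 bases before and 50 after the start) matched 7 of the 10 genes. The letters below run from the 5′ end of each window to the base before the first annotated exon base, all on the plus strand, at chr12:31265043-31265233 (*Lamb1*), chr9:108479612-108479735 (*Lamb2*), chr13:13437352-13437550 (*Nid1*), and chr4:137468553-137468768 (*Hspg2*). Capitals mark GGGCGG, the GC box core, and GGAATG, the core bound by TEAD factors, on either strand, and no annotated exon lies under these letters.
Lamb1: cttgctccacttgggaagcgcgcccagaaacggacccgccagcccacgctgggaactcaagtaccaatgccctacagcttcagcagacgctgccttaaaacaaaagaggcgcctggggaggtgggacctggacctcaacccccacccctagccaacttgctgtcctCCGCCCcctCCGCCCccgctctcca
Lamb2: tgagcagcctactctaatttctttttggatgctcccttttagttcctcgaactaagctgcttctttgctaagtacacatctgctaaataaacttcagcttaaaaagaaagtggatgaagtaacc
Nid1: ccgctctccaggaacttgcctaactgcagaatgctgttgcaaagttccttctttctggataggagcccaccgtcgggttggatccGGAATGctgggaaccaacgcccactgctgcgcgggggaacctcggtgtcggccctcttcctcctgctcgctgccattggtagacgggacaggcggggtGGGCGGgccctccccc
Hspg2: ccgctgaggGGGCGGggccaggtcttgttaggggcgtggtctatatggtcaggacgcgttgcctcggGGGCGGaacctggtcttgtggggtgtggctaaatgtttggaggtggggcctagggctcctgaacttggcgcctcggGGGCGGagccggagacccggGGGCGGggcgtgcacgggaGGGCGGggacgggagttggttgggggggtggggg
In the whole windows, GGGCGG was found 5 times for *Hspg2*, 2 times for *Lamb1*, 1 time for *Nid1*, and 0 times for *Lamb2*. Among the other matched genes it was found 12 and 2 times in the windows of *Agrn*, 4 times for *Lama5*, and 1 time for *Lama2*. It is present in 35.7% of the 32851 windows of the same length. GGAATG was found 1 time for *Nid1* and in none of the other 6 matched genes, against 14.7% of all windows. Neither the E-box CAGCTG (16.3% of all windows) nor the AP-1 sequence TGANTCA (7.8%) was found on either strand in the window of any of the 7 genes, and no match of 1 motif overlapped a match of another. The GC content of the windows was 70.3% for *Hspg2*, 64.7% for *Nid1*, 63.7% for *Lamb1*, and 44.0% for *Lamb2*. These matches describe letters only.

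Levels between genes were compared as CPM per kb of merged exon (counts scaled to library size by the TMM factors of edgeR and divided by exon length). In the control, *Nid1* was the highest at 77.4 ± 7.88 CPM per kb (SD, n = 3), followed by *Hspg2* at 48.6 ± 8.41. *Nid2* (27.9 ± 2.06) and *Lamb2* (27.6 ± 1.41) came next with overlapping samples, followed by *Lamc1* (23.6 ± 2.85), whose 3 samples lay below those of both. *Lamb1* followed with 19.6 ± 0.399. *Lama5* (11.3 ± 1.44) and *Lama2* (9.80 ± 1.82) again overlapped, and *Agrn* (3.25 ± 0.263) and *Lama4* (1.94 ± 0.245) were the lowest. Each alpha chain was below the gamma chain per kb in the control. The order of the middle genes depends on the length used: per kb of the longest annotated transcript, *Lamb1* (33.5 ± 0.683) stood above *Lamb2* (29.8 ± 1.53), and *Lama2* (16.7 ± 3.10) above *Lama5* (11.3 ± 1.44), while *Nid1* and *Hspg2* stayed on top. By either length *Nid1* was the highest in all 4 groups, and the lowest was *Lama4* per merged exon and *Agrn* per longest transcript.

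**Figure D1:**
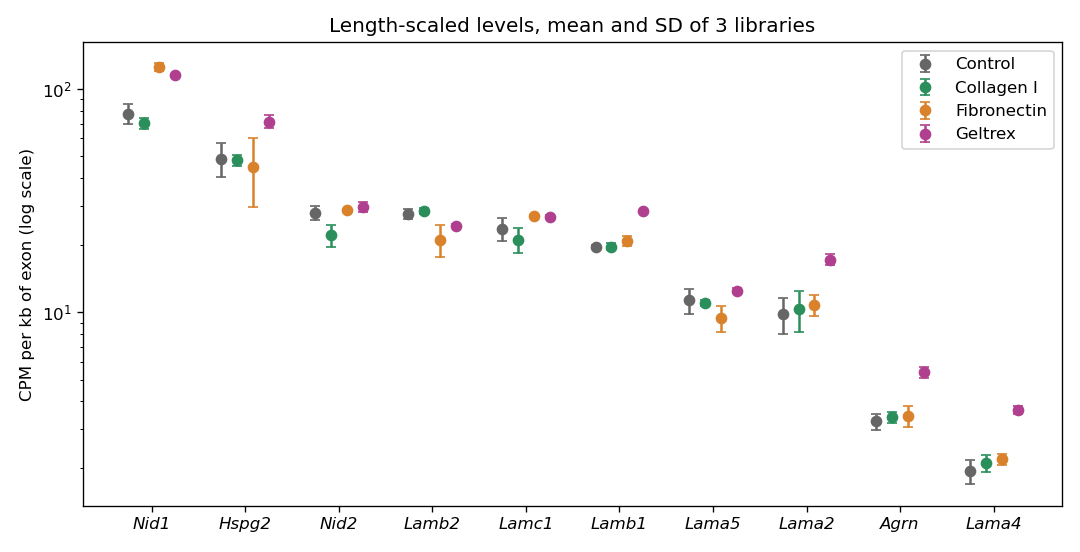
Mean level of each gene in CPM per kb of merged exon (log axis), ordered by the control level, with 1 point per group and bars of 1 SD over 3 samples. *Nid1* runs from 70.2 on Collagen I to 125 on fibronectin, and *Lama4* from 1.94 in the control to 3.66 on Geltrex™.

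The comparison of Geltrex™ with the control asks how a basement membrane coating went with the cells' own basement membrane transcripts. *Lama2*, *Lama4*, *Lamb1*, *Nid1*, *Hspg2*, and *Agrn* rose on Geltrex™, by 1.45- to 1.89-fold, and none fell. These 6 of 10 compare with 16.4% of all genes tested that were higher at an adjusted p of at most 0.05 (edgeR's quasi-likelihood test, adjusted by Benjamini-Hochberg, as for every adjusted p of a fold change below). Genes lower at that threshold made up 16.6%. The median log2 fold change was 0.55 over the 10 genes and -0.012 over all genes tested. No gene of the set was called with a fold change of at least 2 in any comparison. Of all genes, 0.131%, 6.66%, and 9.14% were, on Collagen I, fibronectin, and Geltrex™ against the control, 8.46% and 9.32% on fibronectin and Geltrex™ against Collagen I, and 3.98% on Geltrex™ against fibronectin. The groups did not overlap for 8 of the 10 genes, against 50.4% of all genes.

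*Lama2* encodes the alpha chain of the laminin of mature muscle fibers (chromosome 10, 26980036 to 27619758, minus strand, GRCm38). Its levels were 131, 191, and 158 CPM in the control, 175, 199, and 129.6 CPM on Collagen I, 176, 158, and 195 CPM with fibronectin, and 273, 271, and 300.3 CPM with Geltrex™. All Geltrex™ samples were above the other 9, which overlapped one another. The log2 fold change against the control was 0.81 (SE 0.15, adjusted p = 4.38e-04). *Lama4*, the alpha chain of vessel and early muscle basement membranes (chromosome 10, 38965515 to 39110188, plus strand), followed the same order at a lower level. It had 20.2, 24.0, and 26.0 CPM in the control, 25.1, 27.9, and 23.5 CPM on Collagen I, 24.9, 27.3, and 27.5 CPM with fibronectin, and 45.1, 42.3, and 45.3 CPM with Geltrex™. It was the gene of the 10 that rose most, by 0.92 on the log2 scale (SE 0.099, adjusted p = 3.43e-06). *Lama5*, an alpha chain broadly made in embryonic and epithelial basement membranes (chromosome 2, 180176373 to 180225859, minus strand), did not separate in this way. Its levels were 136, 141, and 110.4 CPM in the control, 125, 123, and 129.8 CPM on Collagen I, 111, 91.2, and 119.8 CPM with fibronectin, and 138, 144, and 145 CPM with Geltrex™. The Geltrex™ and control samples overlapped, with a log2 difference of 0.14 (95% interval -0.080 to 0.36, adjusted p = 0.330).

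The beta chains went different ways. *Lamb1* (chromosome 12, 31265234 to 31329644, plus strand), the beta chain of most embryonic laminins, had 189, 195, and 197 CPM in the control, 199.7, 198, and 187 CPM on Collagen I, 201, 201, and 219.6 CPM with fibronectin, and 282, 282, and 281 CPM with Geltrex™. The Geltrex™ samples were again above the other 9, and the log2 fold change against the control was 0.54 (SE 0.068, adjusted p = 1.81e-05). *Lamb2* (chromosome 9, 108479736 to 108490530, plus strand) had 167, 176, and 159 CPM in the control, 168, 173, and 179.7 CPM on Collagen I, 127, 108, and 150.4 CPM with fibronectin, and 149, 151, and 146 CPM with Geltrex™. Its Geltrex™ samples lay below the control samples by a log2 difference of -0.17 that did not pass the test (SE 0.097, adjusted p = 0.185). It passed in the fit to only these groups (-0.18, adjusted p = 0.0481). *Lamc1* (chromosome 1, 153218922 to 153332786, minus strand), the gamma chain shared by most laminins, had 168, 209, and 209 CPM in the control, 189, 185, and 149 CPM on Collagen I, 221, 227, and 221 CPM with fibronectin, and 220.2, 220.1, and 225 CPM with Geltrex™. The log2 difference from the control was 0.19 on Geltrex™ (adjusted p = 0.167) and 0.19 on fibronectin (adjusted p = 0.152), neither of which passed. With the GC covariate, which is described below for fibronectin, the Geltrex™ difference passed (0.17, adjusted p = 0.0494).

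*Nid1* and *Nid2* encode the linkers between the laminin and collagen IV layers. *Nid1* (chromosome 13, 13437551 to 13512269, plus strand) had 476, 579, and 559 CPM in the control, 476, 521, and 466 CPM on Collagen I, 842, 909, and 858 CPM with fibronectin, and 783, 809, and 805 CPM with Geltrex™. The fibronectin and Geltrex™ samples were all above the control and Collagen I samples, and *Nid1* rose by a log2 of 0.57 on Geltrex™ (SE 0.084, adjusted p = 7.84e-05). *Nid2* (chromosome 14, 19751265 to 19811787, plus strand) had 132, 151, and 149 CPM in the control, 128, 111, and 104 CPM on Collagen I, 148, 146, and 150.2 CPM with fibronectin, and 162, 152, and 146 CPM with Geltrex™. It was low on Collagen I, and its other 3 groups overlapped. On the opposite strand, exons of *Rtraf* cover 8.45% of the *Nid2* exon length, and whether counting used the strand is not given in the sources used here.

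The proteoglycan genes both rose on Geltrex™. *Agrn* (chromosome 4, 156165290 to 156197488, minus strand) encodes agrin, which bridges laminin to alpha-dystroglycan and, in its neural form, clusters acetylcholine receptors. It had 30.1, 32.6, and 27.8 CPM in the control, 32.4, 29.5, and 32.7 CPM on Collagen I, 32.5, 28.3, and 35.0 CPM with fibronectin, and 47.3, 52.8, and 50.0 CPM with Geltrex™. The Geltrex™ samples stood above all others, and the log2 fold change against the control was 0.73 (SE 0.094, adjusted p = 2.02e-05). *Hspg2* (chromosome 4, 137468769 to 137570630, plus strand) encodes perlecan, a large proteoglycan that binds growth factors and laminin. It had 668, 826, and 590.4 CPM in the control, 729, 677, and 655 CPM on Collagen I, 572, 467, and 886 CPM with fibronectin, and 957, 1012, and 1094 CPM with Geltrex™. The Geltrex™ samples were the highest 3 of the 12, and the log2 fold change was 0.56 (SE 0.17, adjusted p = 0.0227). This call was lost without control sample 1 (adjusted p = 0.0637), control sample 3 (0.0976), Geltrex™ sample 2 (0.0518), or Geltrex™ sample 3 (0.0815), and with the 3 Geltrex™ samples summed into 1 (0.56, adjusted p = 0.186), while the log2 fold change lay between 0.45 and 0.71 in the fits without 1 sample. The other 5 calls stood in each of these fits.

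**Figure D2:**
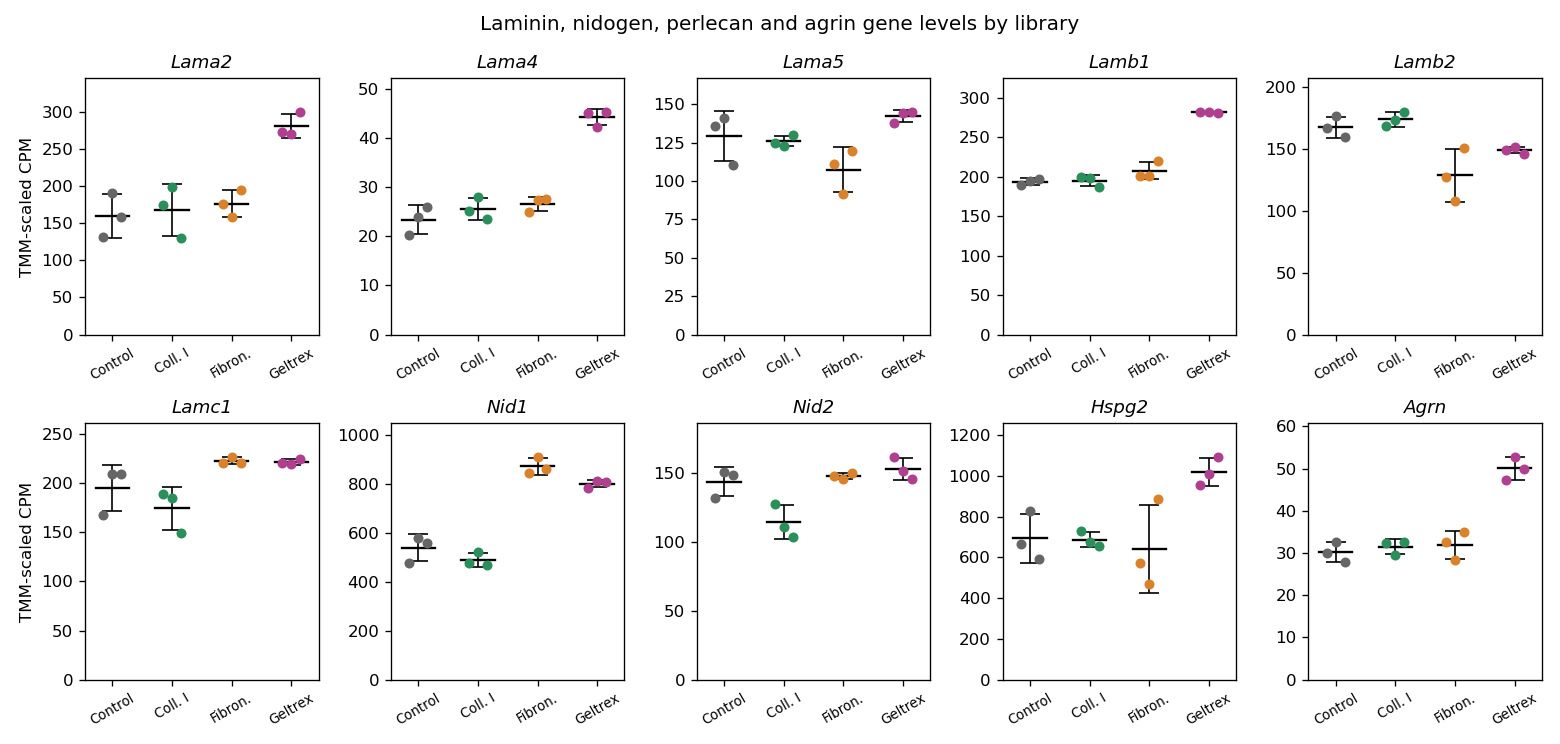
Level of each of the 10 genes in TMM-scaled CPM (linear axis from 0), with 1 point per sample, a line at the mean of 3 samples, and bars of 1 SD. The Geltrex™ samples lie above all others for *Lama2*, *Lama4*, *Lamb1*, *Hspg2*, and *Agrn*, while *Nid1* is high on both fibronectin (842 to 909) and Geltrex™ (783 to 809).

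On fibronectin the set moved less. *Nid1* rose by a log2 of 0.69 (SE 0.085, 1.62-fold, adjusted p = 1.64e-05), and *Lamb2*, the beta chain of the mature synaptic basement membrane, fell by 0.38 on the log2 scale (SE 0.097, adjusted p = 0.00707). These 2 called genes of 10 compare with 31.9% of all genes called in either direction (17.1% higher and 14.7% lower), and the count of the set ran from 1 to 4 over the settings given below. *Lama5* had a log2 difference of -0.27 that missed the threshold (adjusted p = 0.0591) but passed when genes under 10 counts in any sample were left out (-0.29, 0.0392) and without control sample 3 (-0.37, 0.0141), and the other 7 genes lay between -0.12 and 0.19. The median was 0.089 over the set and -0.016 over all genes. The low *Lamb2* and *Lama5* levels were deepest in fibronectin sample 2. That sample also had the lowest *Hspg2* of the 12 samples and the lowest mean GC content of the counted transcripts. *Hspg2*, *Lama5*, and *Lamb2* have the most GC-rich transcripts of the set (60.9%, 59.9%, and 58.8%, against a median of 49.2% over the genes tested). With the mean GC content of the counted transcripts as a covariate, the *Lamb2* difference was -0.24 (adjusted p = 0.0681) and no longer called. *Nid1* remained at 0.57 (adjusted p = 4.02e-05). The covariate was computed from the same counts, with mitochondrial genes left out, so it is not separate from expression. Without fibronectin sample 2, *Lamb2* stayed called, and without fibronectin sample 3 *Lama5* (-0.35, adjusted p = 0.0235) and *Hspg2* (-0.41, adjusted p = 0.0243) passed as lower, giving 4 called genes.

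On Collagen I none of the 10 genes passed against the control, where 1.12% of all genes were called, and the median log2 difference was -0.0044. The largest difference was that of *Nid2*, -0.33 (95% interval -0.52 to -0.15, adjusted p = 0.0708), the 1 gene of the set at an unadjusted p under 0.05, against 14.8% of all genes. Its Collagen I samples lay below all control samples. *Nid2* was called with DESeq2 (adjusted p = 0.0141), with no filter on low counts (0.0386), and with the GC covariate (0.0340), each time as the only gene of the set. The widest interval was that of *Hspg2*, from -0.39 to 0.35, and the narrowest that of *Lamb1*, from -0.14 to 0.15.

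**Figure D3:**
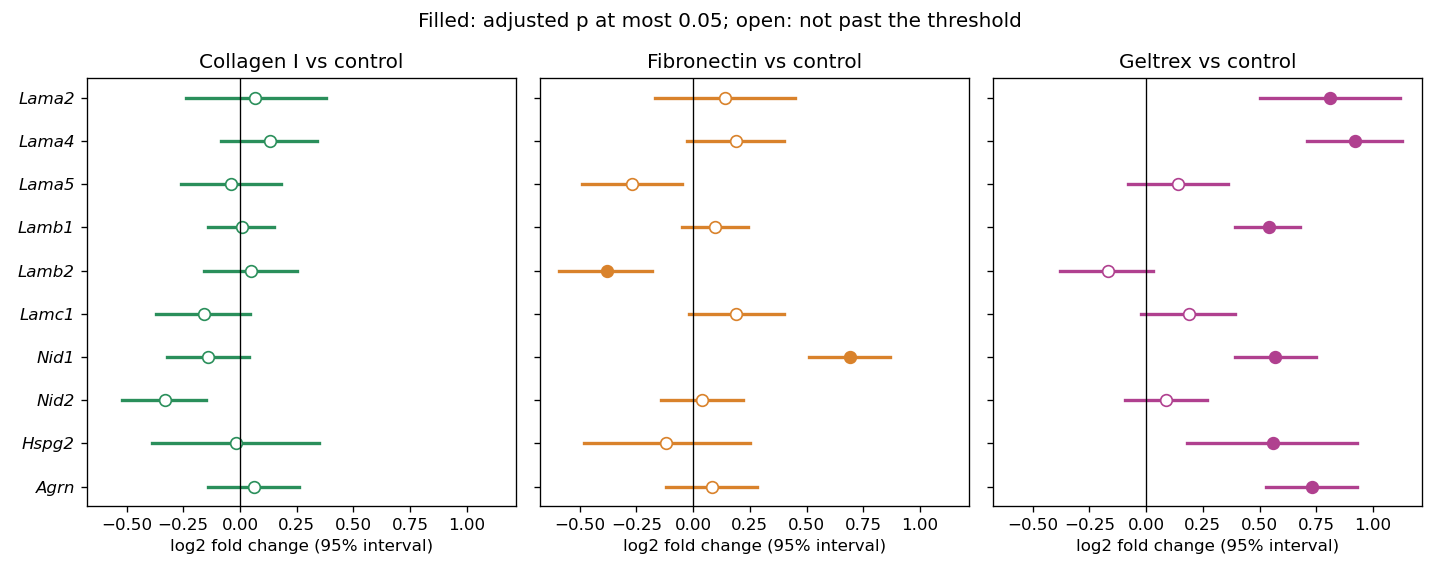
Log2 fold change of each gene on Collagen I, fibronectin, and Geltrex™ relative to the control, with 95% intervals. Filled points passed an adjusted p of 0.05: 0 on Collagen I, *Nid1* (0.69) and *Lamb2* (-0.38) on fibronectin, and 6 genes from 0.54 to 0.92 on Geltrex™. The 3 panels share the control samples.

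The coatings were also set against each other, in comparisons that share samples with those above. Geltrex™ against fibronectin, the coatings on which the myotube markers were both lower than in the control, gave 6 genes higher on Geltrex™ and 0 lower, against 9.06% of all genes called higher and 10.3% called lower. They were *Lama4* (log2 fold change 0.73, adjusted p = 7.58e-05), *Lama2* (0.67, 0.00388), *Hspg2* (0.67, 0.0135), *Agrn* (0.65, 1.52e-04), *Lamb1* (0.44, 2.64e-04), and *Lama5* (0.41, 0.0114). *Nid1* differed by -0.12 (95% interval -0.30 to 0.056), *Nid2* by 0.050 (-0.13 to 0.23), and *Lamc1* by -0.0058 (-0.21 to 0.20), none past the threshold. *Lama5* and *Hspg2* lost their calls with the GC covariate (adjusted p = 0.0705 and 0.0803) and without fibronectin sample 2 (0.0603 and 0.0626), and *Hspg2* also without fibronectin sample 1 (0.0644) or Geltrex™ sample 3 (0.0579). With the Geltrex™ samples summed into 1 the log2 fold changes of *Lama2* (0.67, adjusted p = 0.110), *Lama5* (0.40, 0.213), and *Hspg2* (0.67, 0.194) hardly moved, but they no longer passed with fewer samples, which left *Lama4*, *Lamb1*, and *Agrn*. Without fibronectin sample 3, *Lamb2* passed as higher on Geltrex™ (0.34, adjusted p = 0.0129). In this comparison 4 of the 7 myotube markers and 2 of the 5 myoblast markers were higher on Geltrex™, and 0 of the 5 proliferation markers passed.

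Against Collagen I, 8 genes were higher on Geltrex™, against 19.0% of all genes, and all 10 had groups that did not overlap, against 54.7% of all genes. *Nid2* (0.42, adjusted p = 0.00133) and *Lamc1* (0.35, adjusted p = 0.0116) were among these 8. *Hspg2* (0.57, adjusted p = 0.0179) lost its call without Collagen I sample 3 (0.0516) or Geltrex™ sample 3 (0.0666), and with the Geltrex™ samples summed *Hspg2* (0.58, adjusted p = 0.158) and *Lamc1* (0.36, 0.154) kept their log2 fold changes but did not pass, which left 6 calls. In the fit to only these groups all 10 were called, with *Lama5* higher (0.18, adjusted p = 0.0430) and *Lamb2* lower (-0.22, 0.0147), and *Lama5* was also called with the GC covariate (0.27, 0.0118). On fibronectin against Collagen I, *Nid1* (0.84, adjusted p = 1.82e-06), *Nid2* (0.37, 0.00277), and *Lamc1* (0.35, 0.00865) were higher and *Lamb2* (-0.43, 0.00216) was lower. These 4 of 10 compare with 45.0% of all genes called. With the GC covariate, *Lamb2* (-0.23, adjusted p = 0.135), *Lamc1* (0.10, 0.498), and *Nid2* (0.27, 0.0791) were no longer called there. The covariate comes from the same counts and does not overlap between these groups (47.8% to 48.4% on fibronectin, 48.5% to 49.1% on Collagen I). It therefore cannot be told apart from the coating in this comparison. Without fibronectin sample 3, *Lama5* (-0.31, adjusted p = 0.0301) and *Hspg2* (-0.40, 0.0214) passed as lower there. Collagen I sample 3 and fibronectin sample 2 hold the highest and the lowest mean GC content of the counted transcripts among the 12. By the GC content of the reads in the paper's supplement, control sample 3 was lowest, closely followed by fibronectin sample 2. Geltrex™ sample 2 was highest by that measure, and Collagen I sample 3 was not at either end.

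Ratios of paralogs within a sample do not depend on the scaling between samples, and 5 were tested over the 4 groups with an exact permutation test of the F statistic (15400 partitions, smallest possible p = 6.49e-05, Benjamini-Hochberg adjustment over the 5 ratios). The log2 ratio of *Lamb2* to *Lamb1* counts was -0.21 ± 0.084 in the control, -0.17 ± 0.097 on Collagen I, -0.70 ± 0.18 on fibronectin, and -0.92 ± 0.018 on Geltrex™ (SD, 3 samples each), and the groups differed (adjusted exact p = 0.00195). Every fibronectin and Geltrex™ sample had a lower ratio than every control and Collagen I sample. GC content of the transcripts was 58.8% for *Lamb2* and 52.5% for *Lamb1*. On fibronectin the ratio was -0.66, -0.89, and -0.55 in samples with mean GC contents of 48.2%, 47.8%, and 48.4%. Control sample 3, also at 48.4%, had -0.31, and Collagen I sample 3, at 49.1%, had -0.059. The Geltrex™ samples, at 48.5% to 48.6%, had -0.94 to -0.90. The GC covariate was not applied to the ratios, and the part of GC content in them was not tested. Per merged exon length, *Lamb2* made up 58.5% ± 1.41 of the beta chain counts in the control and 46.2% ± 0.313 on Geltrex™. Per longest transcript the shares were 47.0% ± 1.44 and 35.2% ± 0.287, so which chain held the majority depended on the length used. The direction of the shift cannot depend on it, because the length of a gene is the same in every sample. The log2 ratio of *Nid2* to *Nid1* also differed (adjusted exact p = 0.00162), from -1.90 ± 0.043 in the control to -2.09 ± 0.18 on Collagen I, -2.55 ± 0.073 on fibronectin, and -2.38 ± 0.095 on Geltrex™.

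The other 3 ratios did not pass. *Lama5* to *Lama2* was -0.30 ± 0.31 in the control, -0.39 ± 0.36 on Collagen I, -0.72 ± 0.067 on fibronectin, and -0.98 ± 0.065 on Geltrex™ (adjusted exact p = 0.0688), and it passed without control sample 1 (0.0318), Collagen I sample 2 (0.0331), or Collagen I sample 3 (0.00422). *Lama4* to *Lama2* stayed between -2.77 and -2.67 in the group means (adjusted exact p = 0.906), the alpha chain genes that both rose on Geltrex™. *Agrn* to *Hspg2* lay between -4.51 and -4.28 (adjusted exact p = 0.615), and *Hspg2* made up 92.5% to 93.7% of their counts per exon length. Without fibronectin sample 3 the adjusted exact p of this ratio was 0.0255.

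**Figure D4:**
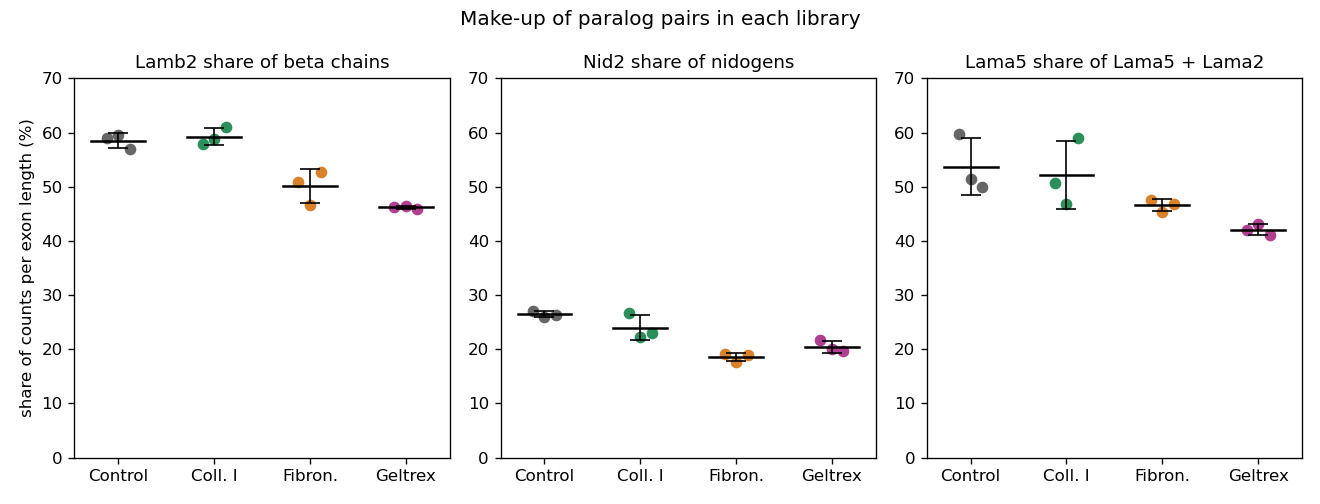
Share of counts per merged exon length (%) held by *Lamb2* among the beta chains, *Nid2* among the nidogens, and *Lama5* in the pair with *Lama2*, with 1 point per sample, a line at the mean of 3 samples, and bars of 1 SD. The *Lamb2* share falls from 58.5% in the control to 50.1% on fibronectin and 46.2% on Geltrex™, and that of *Nid2* from 26.5% to 18.6% and 20.5%.

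Other laminin chain genes were scarcer. *Lama1*, the alpha chain of the laminin in tumor-derived basement membrane extracts, had 0 to 7 counts in every sample, including 2 to 7 on Geltrex™, and was not tested. *Lamc3* and *Lamb3* fell on Geltrex™ relative to the control. *Lamc3* had 0.330 CPM against 0.926 (log2 fold change -1.48, adjusted p = 0.00965), and *Lamb3*, a beta chain of epithelial basement membranes, had 10.3 CPM against 17.8 (-0.79, adjusted p = 3.00e-05). On fibronectin *Lamc3* fell (-1.50, adjusted p = 0.00901).

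Of the other structural genes, 6 of 8 listed basement membrane collagens were tested. *Col18a1*, whose heparan sulfate bearing collagen releases endostatin, rose 3.51-fold on fibronectin (20.5 to 72.0 CPM, adjusted p = 2.26e-07) and also rose on Geltrex™ (38.9 CPM, log2 fold change 0.92, adjusted p = 1.43e-04). *Col15a1*, a related collagen of muscle basement membranes, fell on both (-1.05, adjusted p = 0.0397, and -1.30, adjusted p = 0.0157), from 1.10 CPM in the control. On Geltrex™ 1 collagen rose and 2 fell, where 16.4% of all genes rose and 16.6% fell, and on fibronectin 2 rose and 1 fell, where the shares were 17.1% and 14.7%. The counts of all lists below are to be read against these shares, and small lists near them say nothing about the list. Of 11 other basement membrane proteins tested, 3 rose and 4 fell on Geltrex™, and 3 rose and 3 fell on fibronectin. Their extremes were the same in both: *Frem1* rose (2.38 on Geltrex™, adjusted p = 1.69e-06, and 1.33 on fibronectin, adjusted p = 8.14e-04) and *Fras1* fell (-1.94, adjusted p = 0.00119, and -1.54, adjusted p = 0.00512). Both encode proteins of the Fraser complex under epithelia, and both were below 10 CPM in every sample. These comparisons share the control samples.

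Of 7 laminin receptor genes none was called higher on either coating. On Geltrex™ 2 of 7 fell, against 16.6% of all genes, *Bcam*, a receptor for the *Lama5* chain (-1.15, adjusted p = 4.09e-05), and *Dag1*, which encodes dystroglycan (-0.29, adjusted p = 0.0267). On fibronectin 3 of 7 fell, against 14.7% of all genes, with *Bcam* at -1.96 (adjusted p = 4.13e-07) and *Dag1* at -0.31 (adjusted p = 0.0224) the extremes. The third was *Itga7*, the laminin-binding integrin alpha chain of muscle, which the naming rule does not cover in this comparison and which was chosen after its values were seen. It had 1350.1, 1302, and 897 CPM in the control, 783, 493, and 786 CPM on fibronectin, and 1128, 1122, and 1099 CPM on Geltrex™. All fibronectin samples were below all control samples (-0.78, adjusted p = 0.00174), while Geltrex™ samples lay within the control range. Of the 4 genes of the agrin receptor complex, none rose, 2 fell on Geltrex™ and 3 on fibronectin, against the same 16.6% and 14.7%. *Dok7*, an activator of the receptor kinase MuSK, had the lowest values (-1.35, adjusted p = 3.79e-04, and -1.31, adjusted p = 5.70e-04). Its level was also low on Collagen I (3.56 CPM against 6.92 in the control, -0.96), though not called. *Dok7* was not called on fibronectin or Geltrex™ against Collagen I. *Lrp4*, the agrin receptor, had the smallest called fall (-0.33, adjusted p = 0.0128, and -0.36, adjusted p = 0.00728).

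The enzymes that build the laminin-binding glycan of alpha-dystroglycan moved little, and none of the 12 tested rose on fibronectin or Geltrex™. *B3galnt2*, which adds a sugar of this glycan, fell on Geltrex™ (-0.29, adjusted p = 0.0176). Of 15 heparan sulfate enzymes tested, 3 rose and 2 fell on Geltrex™, and 6 rose and 2 fell on fibronectin. *Hpse*, the heparanase that cuts these chains, rose most (1.71, adjusted p = 1.84e-05, on Geltrex™), from 1.57 to 5.18 CPM. *B4galt7*, which adds a sugar of the chain linker, fell most on Geltrex™ (-0.61, adjusted p = 0.00180). On Collagen I 0 of the 59 tested genes in these 7 other lists passed against the control.

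**Figure D5:**
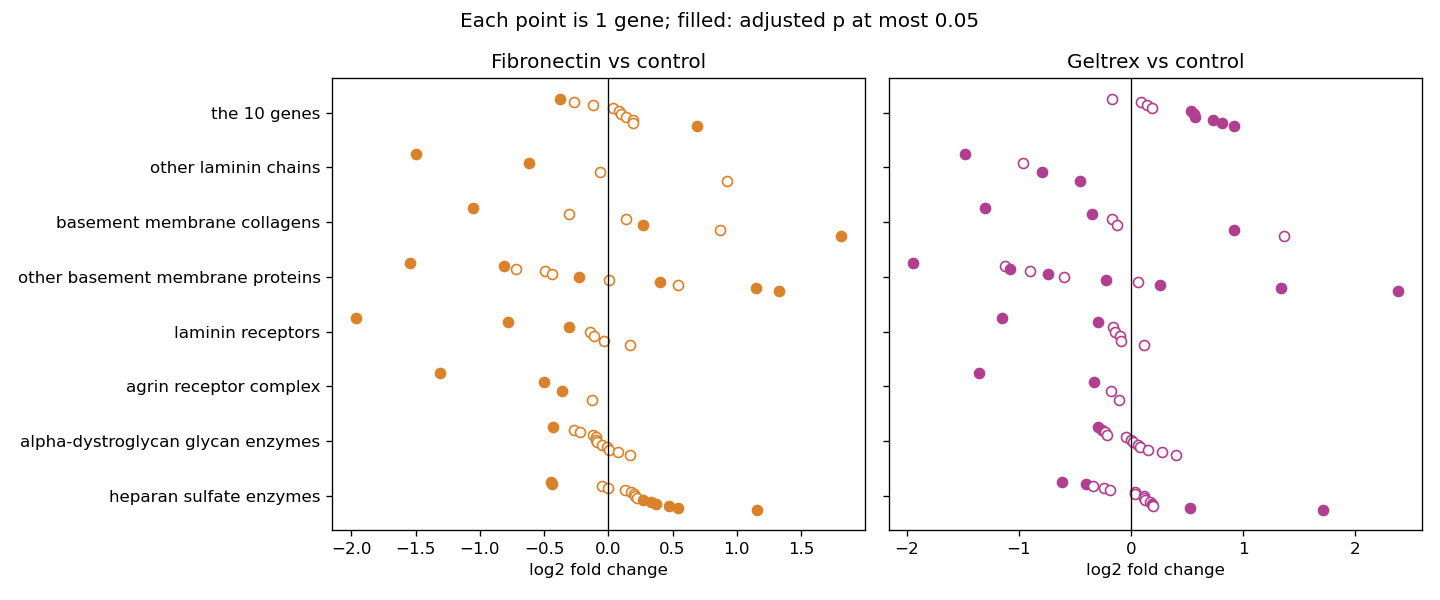
Log2 fold changes from the control (fibronectin on the left, Geltrex™ on the right) for the 10 genes and 7 lists of related genes, 1 point per gene, filled where the adjusted p was at most 0.05. On Geltrex™ the 6 filled points of the 10 genes all lie above 0, and those of the other laminin chains, laminin receptors, and agrin receptor complex all lie below 0.

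The 5 genes with at least 10 CPM on average whose log2 CPM ran most like that of *Lamc1* over the 12 samples were *Tjp1* (Pearson r = 0.986), *Slit2* (0.971), *Myof* (0.966), *Anapc1* (0.966), and *Ascc3* (0.965), out of 8845 candidates. The 12 points share 4 groups, and each of the 5 genes had its lowest mean on Collagen I, as *Lamc1* did. *Tjp1*, a tight junction scaffold gene, had means of 590.1 CPM in the control, 474 CPM on Collagen I, 718 CPM with fibronectin, and 706 CPM with Geltrex™.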

How the data were processed

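RNA-seq counts of 12 samples in 4 groups were analyzed. Raw read counts per gene, neither normalized nor pooled, were deposited by the authors, who used Trimmomatic for trimming, HISAT2 for alignment, and featureCounts for counting of paired reads. Versions, genome build, and strand rule are not given in the sources used here. All 55536 gene identifiers matched GENCODE M21 (GRCm38), used for names, positions, lengths, and transcript GC content.

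Counts were analyzed in R 4.3.3 with edgeR 4.0.16. Genes were kept by filterByExpr (minimum count 10, minimum total 15), TMM scaling was applied, and all 6 comparisons came from 1 quasi-likelihood model of the 4 groups (8 residual degrees of freedom), adjusted by Benjamini-Hochberg over 14499 genes. A gene was called at an adjusted p of at most 0.05. The standard error is the log2 fold change divided by the root of the F statistic. Ratios were taken on counts. Alternatives were DESeq2 1.42.0, RLE scaling, 2 other filters, fits to only the groups compared, a replicate block, and fits without each sample in turn. After the data were seen, the GC covariate, the summed Geltrex™ samples, and longest transcript lengths were added. The scripts were tested on simulated data.

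The members and gene lists were chosen with earlier results of these data known. Named genes are the 10 members, the highest and lowest called gene of each other list per comparison, and the 5 genes most like *Lamc1*. In each group every pair of samples differed by more than sampling noise. Total counts of 22520404 to 27351766 per sample set the precision, and intervals reflect the spread between samples. Promoter letters are from RefSeq (GRCm38.p6). A few genes of the lists are not reported here.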

Additional observations from a re-analysis of the deposited data

How the results depend on the processing

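Samples with the same replicate number did not deviate together (correlations of -0.154 to 0.225), and a replicate block left the number of called genes of the set the same in all 6 comparisons (0, 2, 6, 4, 8, and 6, in the order Collagen I, fibronectin, and Geltrex™ against the control, fibronectin and Geltrex™ against Collagen I, and Geltrex™ against fibronectin). Calls of the set rest on 3 samples per group, and the cause of the changes below was not tested unless the setting itself removes samples or genes.

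For Collagen I against the control, 1 gene of the set was called with DESeq2, with no filter, or with the GC covariate, against 0. All genes called numbered 450 with DESeq2, 581 with no filter, 39 in the fit to only these groups, 570 with the GC covariate, and 44 to 155 without 1 sample, against 162. Genes that also passed 2-fold numbered 43 with no filter, 10 in the fit to only these groups, 35 with the GC covariate, and 10 to 25 without 1 sample, against 19. With at least 10 counts in every sample, which leaves 12486 genes, those past 2-fold numbered 851 against 1325 (Geltrex™ and control), 790 against 1226 (fibronectin and Collagen I), 855 against 1352 (Geltrex™ and Collagen I), and 361 against 577 (Geltrex™ and fibronectin).

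With the GC covariate, 1 gene of the set was called for fibronectin against the control (2 without it) and 1 against Collagen I (4 without it). For fibronectin against Collagen I, all genes called fell from 6523 to 3168 and those past 2-fold from 1226 to 795. The covariate does not overlap between these groups, so it cannot be told apart from the coating there. Without fibronectin sample 3 the set had 4 calls against the control, with a range of 2 to 4 over the 6 fits without 1 sample. With the Geltrex™ samples summed into 1, all genes called numbered 2079, 2130, and 703 against the control, Collagen I, and fibronectin (4786, 5384, and 2805 before), 353 genes were past 2-fold against fibronectin, and 3 of the set were called there. Against fibronectin, all genes called numbered 1717 to 3270 without 1 sample.

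Signs turned only for small differences that had not passed. With the GC covariate these were *Lamb2* (-0.0093) on Collagen I, *Lama2* (-0.028), *Nid2* (-0.033), and *Hspg2* (0.095) on fibronectin, *Lama2* (-0.16), *Lama4* (-0.15), *Lama5* (0.022), and *Hspg2* (0.20) for fibronectin against Collagen I, and *Lamc1* (0.16) for Geltrex™ against fibronectin. With the stricter filter they were *Agrn* (-0.0022) and *Lamc1* (0.0030) in the last 2 comparisons. Without 1 sample, values for Collagen I against the control ranged from -0.071 to 0.22 (*Lama2*), -0.14 to 0.033 (*Lama5*), -0.0091 to 0.028 (*Lamb1*), and -0.12 to 0.13 (*Hspg2*), and for fibronectin against the control from -0.021 to 0.084 (*Nid2*) and -0.41 to 0.071 (*Hspg2*). For fibronectin against Collagen I they ranged from -0.089 to 0.21 (*Lama2*), -0.0028 to 0.13 (*Lama4*), -0.40 to 0.088 (*Hspg2*), and -0.045 to 0.10 (*Agrn*), and for Geltrex™ against fibronectin from -0.017 to 0.0077 (*Lamc1*). The difference in log2 ratio between Geltrex™ and the control ranged from -0.016 to 0.18 for *Lama4* to *Lama2*, -0.79 to -0.50 for *Lama5* to *Lama2*, and 0.091 to 0.22 for *Agrn* to *Hspg2*, and no ratio changed its call with 1 added to both counts or on log2 CPM.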
